A study of Mus musculus with 8 samples.

Results

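The translation initiation factor genes are the genes named Eif1 to Eif6 with their letters and numbers, together with the kinases and binding proteins that carry the same prefix. They were chosen by name alone: every gene in the counts whose Ensembl identifier maps to a mouse symbol that begins with Eif and a digit from 1 to 6, with pseudogene symbols (-ps) left out. The rule found 56 genes of the 43629 genes counted, and the rule uses no measured value. Of these, 52 had enough reads for a test.

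RNA was sequenced from Eμ-Myc lymphoma #1.1 and Eμ-Myc lymphoma #1.2, a pair of mouse B lineage lymphoma cell lines of strain C57BL/6. Eμ-Myc mice carry a Myc transgene driven by the immunoglobulin heavy chain enhancer, so every group here, the vehicle groups included, expresses that transgene. Early passage cells of each line were cultured for 2 h with 250 nM JQ1, an inhibitor that displaces BET bromodomain proteins from acetylated histones, or with the vehicle DMSO. Each of the 4 groups (line #1.1 in DMSO, line #1.1 in JQ1, line #1.2 in DMSO, line #1.2 in JQ1) held 2 libraries, 8 in all. Nothing in the labels says that the libraries of a group are separate cultures. The p-values then speak only for the spread from library to library, possibly a technical one. Each line is a single cultured line, so what is particular to a line and what is particular to the tumour it came from cannot be told apart.

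Initiation is the step at which a ribosome is placed on the start codon of a messenger RNA. The small ribosomal subunit, with eIF1, eIF1A, eIF3, eIF5 and a ternary complex of eIF2, GTP and initiator tRNA, is recruited to the capped 5′ end by eIF4F, which joins the cap-binding protein eIF4E, the scaffold eIF4G and the RNA helicase eIF4A. The 4E-binding proteins compete with eIF4G for eIF4E and are switched off by mTORC1, while 4 stress kinases phosphorylate eIF2 and thereby block its recycling by eIF2B. MYC is known for raising the transcription of several of these factors, including the cap-binding protein, which is why they are often examined in MYC-driven lymphoma.

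Between 10347453 and 13049877 reads per library were assigned to genes, and the initiation factor genes took 1.81% to 1.90% of them in every library. Levels are given as CPM, read counts relative to the size of the library, which was scaled by the trimmed mean of M values (TMM) over the tested genes. The 8 B cell markers used (Cd79a, Cd79b, Pax5 and 5 others) all passed the filter on low counts, with a summed level of 1517 to 1673 CPM in the DMSO libraries and 920.1 to 1067 CPM in the JQ1 libraries. T cell markers (0 of 7 passed, 4 at 0 in every library), erythroid markers (0 of 5, 3 at 0) and NK cell markers (0 of 4, 3 at 0) summed to under 1 CPM in each library, and of the myeloid (7 genes) and the stromal and endothelial markers (6 genes) 1 each passed, with sums of at most 2.26 and 1.54 CPM. The lower level of the B cell markers moved with JQ1 in both lines, and its part in the results on the initiation factor genes was not tested. Gm42418, a gene that overlaps ribosomal RNA sequence and varies with the amount of it left in a library, had 4757 and 10213 reads in the DMSO libraries and 5744 and 5409 in the JQ1 libraries of line #1.1. In line #1.2 it had 4243 and 4113 reads with DMSO and 14719 and 29820 with JQ1, so there it moved with the drug. Reads in no annotated feature were 12.33% to 13.12% of a library with DMSO and 14.0% to 14.4% with JQ1, without overlap, and the part of this difference in the results was not tested.

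Without JQ1, levels per length differed widely among the genes. On the scale of CPM per kb of exon, averaged over the 4 DMSO libraries, Eif5a stood highest at 862 (814 to 928 over the libraries), a factor that helps ribosomes through difficult peptide bonds and carries the modified amino acid hypusine. It was followed by the eIF3 subunit Eif3h at 281 (271 to 295), the helicase Eif4a1 at 243 (233 to 260), its cofactor Eif4b at 229 (215 to 244) and the eIF3 subunit Eif3b at 216 (204 to 226). Eif5a lay above all others in each DMSO library, and the libraries of Eif3h did not overlap those of Eif4a1, whereas those of Eif4a1 overlapped those of Eif4b, which in turn overlapped those of Eif3b. The pseudogene Eif4a-ps4 carried 30.3% to 34.4% as many reads as Eif4a1, so reads may be split between the copies. With those reads counted for it, Eif4a1 would stand higher, so its place beside Eif3h and Eif4b is uncertain. The cap-binding protein Eif4e stood at 40.9 CPM per kb (38.0 to 44.8), below the scaffold Eif4g1 at 167 (157 to 179) and below Eif4a1. At the low end were the eIF2 kinase Eif2ak2 at 5.83 (5.51 to 6.06), the tRNA-delivering factor Eif2d at 5.13 (4.88 to 5.36) and the cap-binding relative Eif4e3 at 3.996 (2.89 to 5.06), whose libraries overlapped those of Eif2d. Exon lengths join every annotated isoform, so genes with long alternative ends read lower on this scale.

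**Figure D1:**
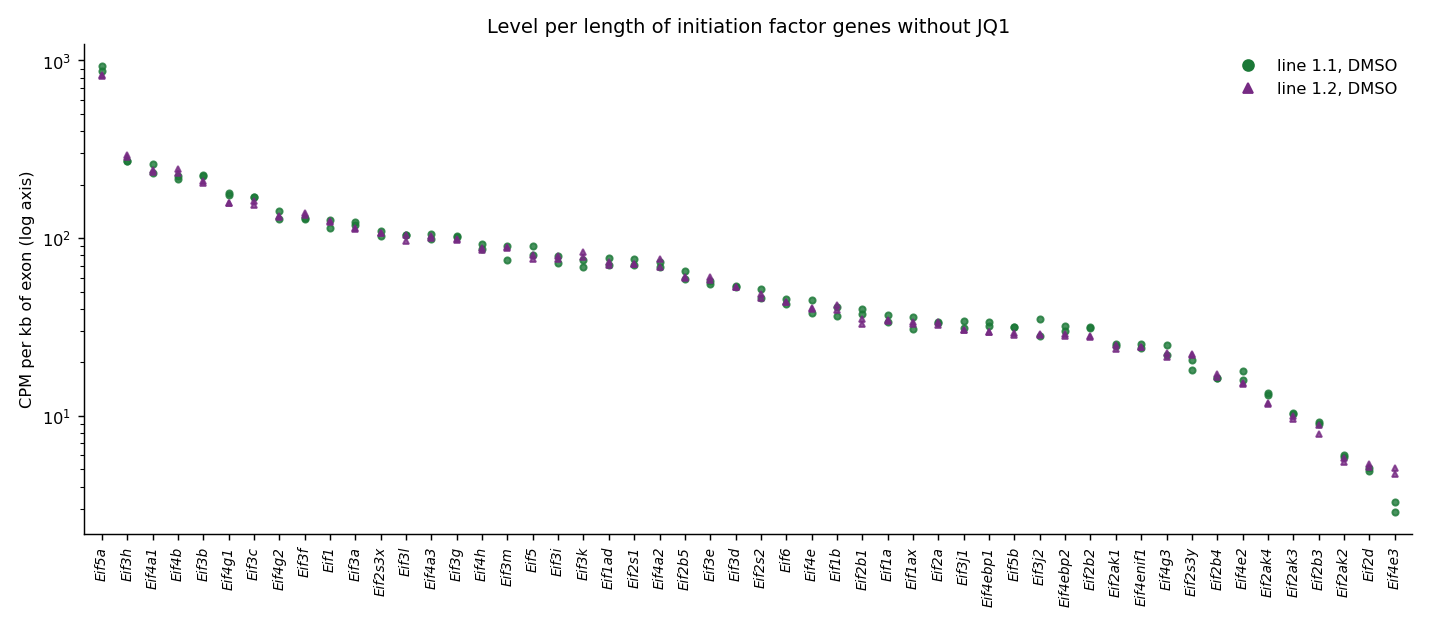
Level of the 52 tested initiation factor genes in the 4 DMSO libraries, in CPM per kb of exon on a log axis, ordered by the mean; circles are line #1.1 and triangles line #1.2. Eif5a stands highest at a mean of 862 and Eif4e3 lowest at 3.996.

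The 4 genes without a test were at or near 0. Eif4e1b, a cap-binding relative known from oocytes, had at most 1 read in any library, Eif5a2, the second eIF5A gene, had 1 read in 1 library, and Eif4ebp3, the third 4E-binding protein, had 0 to 9 reads. Eif2c5 had 0 reads in all 8 libraries; Eif2c is an older name for argonaute genes, and it is not an initiation factor.

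JQ1 moved 28 of the 52 tested initiation factor genes, in both directions and mostly by little. Averaged over both lines, 13 were higher and 15 lower at an adjusted p under 0.05, and 24 did not pass. That is 53.8% of the tested initiation factor genes, against 62.0% of all 12413 genes tested, of which 30.7% were higher and 31.3% lower. Among the 6899 genes whose mean reached 20 CPM the share was 70.7%, and 51 of the 52 initiation factor genes lie at that level. The change ranged from -0.34 to 0.74 on the log2 scale, with a median of 0.0023 against 0.0036 over all genes. The median size of the change, without its sign, was 0.098 on the log2 scale, against 0.25 over all genes tested and 0.19 over those whose mean reached 20 CPM. Only Eif1 changed by 1.5-fold or more, which 21.2% of all genes tested did. In line #1.1 both JQ1 libraries lay above both DMSO libraries for 13 of the 52 genes and below for 20. In line #1.2 they did so for 23 and 22. Some of these genes were not called, such as Eif2a, which did not overlap in either line. With 2 libraries a group, a lack of overlap is thus common and is given below only as a description. How often it occurs over all genes was not compared. The summed level of the 52 genes and the untested 4 lay between 17770 and 18800 CPM in all 8 libraries. The groups overlapped in line #1.1 (18780 and 18090 CPM with DMSO, 18700 and 18800 with JQ1), and in line #1.2 the JQ1 libraries (18330 and 18430 CPM) lay above the DMSO libraries (17880 and 17770). In bulk RNA, fewer cells of a type and less RNA per cell cannot be told apart, and a change of all genes together is removed by the scaling.

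With library totals in place of TMM the split was 10 higher and 21 lower, and the median of all genes tested moved to -0.040. That scaling added calls for Eif2a, Eif2ak4, Eif3e, Eif4a3, Eif4e and Eif5a. Of the 28 calls, 18 (8 higher, 10 lower) held under every alternative tried, and those that did not are named below.

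**Figure D2:**
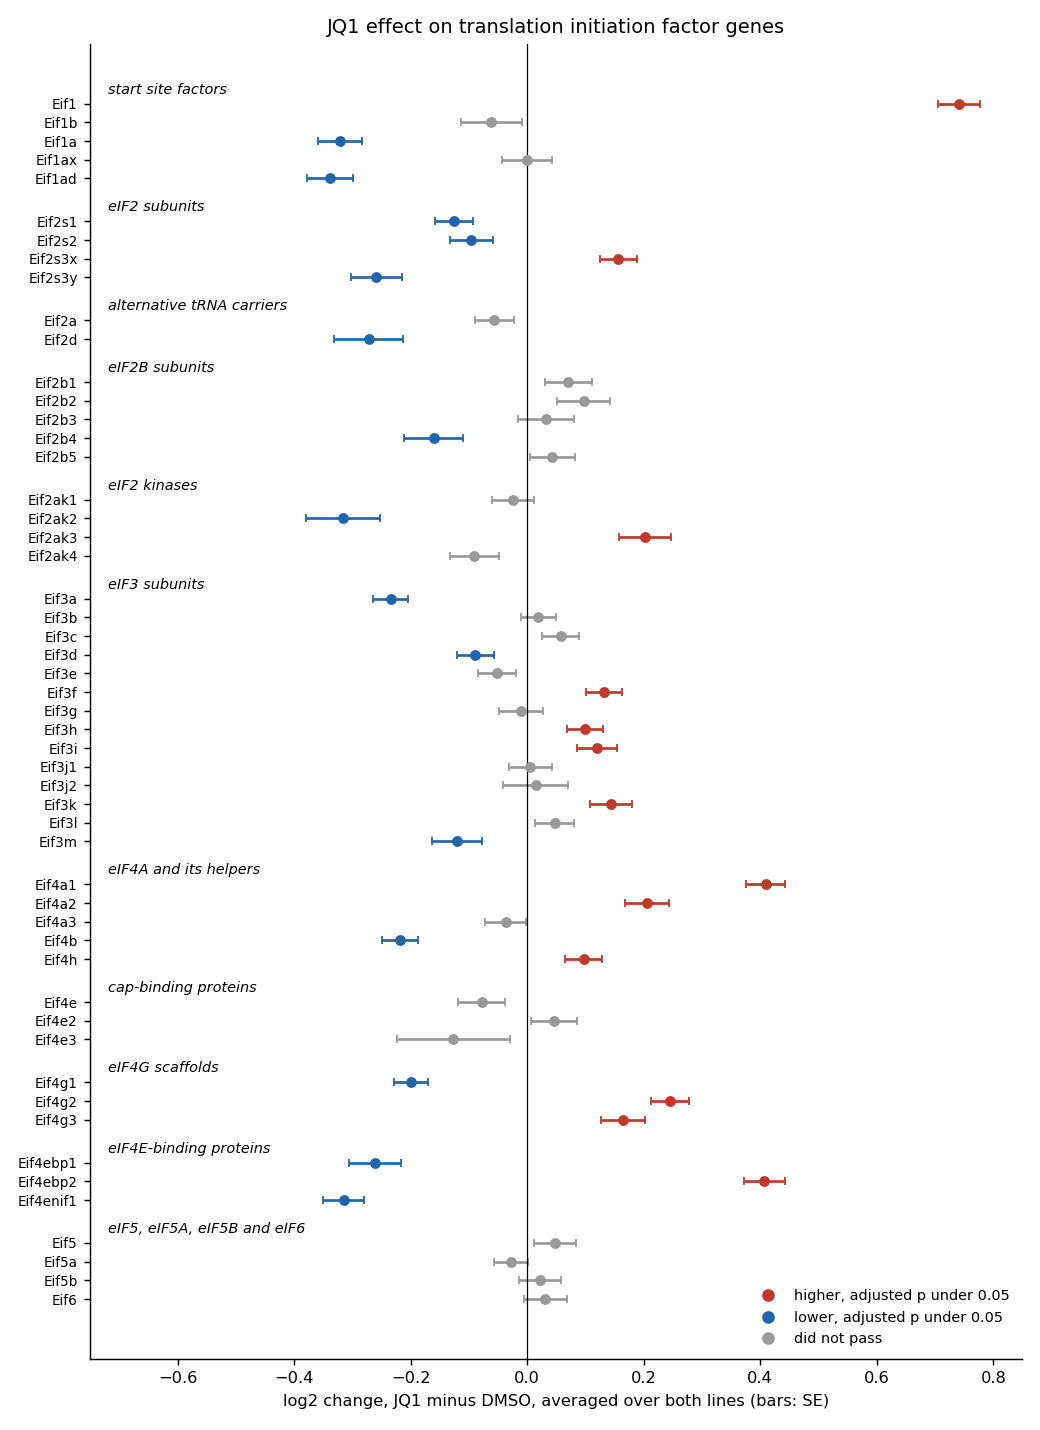
Change of each tested initiation factor gene by JQ1, averaged over both lines (x axis, log2 of JQ1 over DMSO; points are estimates, bars the standard error), grouped by role; red genes were higher and blue genes lower at an adjusted p under 0.05, grey genes did not pass. Eif1 lies apart at 0.74, and all others lie between -0.34 and 0.41.

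The stretches of DNA just upstream of 6 of the genes that moved are shown, because they carry the sequence features described next: Eif1, Eif4a1 and Eif4ebp2 as the genes with the largest rises, Eif4enif1 as 1 of those with the largest falls, and Eif4b and Eif4g1 as partners of Eif4a1 that fell. Sequences are RefSeq windows on GRCm38.p6, written 5′ to 3′ on the strand of the gene, and each ends just before the RefSeq start or the first annotated exon, whichever comes first. The positions are chr11:100319699-100319884 (plus strand), chr11:69672424-69672673 (minus), chr10:61452670-61452919 (minus), chr11:3202103-3202352 (plus, the first of 4 RefSeq starts), chr15:102073523-102073772 (plus) and chr16:20672477-20672722 (plus, inside the gene as GENCODE draws it, which has longer transcripts). Capitals mark 4 motifs on either strand: the E-box CACGTG, which MYC with MAX and other basic helix-loop-helix factors bind, the GC box GGGCGG of SP factors, the CCAAT box CCAAT of NF-Y, and the ETS-type motif CCGGAAG. No marked match overlaps another.
Eif1: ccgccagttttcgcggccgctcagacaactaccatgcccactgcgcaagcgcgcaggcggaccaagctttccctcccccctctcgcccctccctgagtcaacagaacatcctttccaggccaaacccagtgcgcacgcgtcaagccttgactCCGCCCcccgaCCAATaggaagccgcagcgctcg
Eif4a1: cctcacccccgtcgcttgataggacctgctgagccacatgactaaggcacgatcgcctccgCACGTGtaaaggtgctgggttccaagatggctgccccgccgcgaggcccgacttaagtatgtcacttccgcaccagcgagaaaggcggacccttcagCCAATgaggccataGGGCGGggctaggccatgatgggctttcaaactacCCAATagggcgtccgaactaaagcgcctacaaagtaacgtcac
Eif4ebp2: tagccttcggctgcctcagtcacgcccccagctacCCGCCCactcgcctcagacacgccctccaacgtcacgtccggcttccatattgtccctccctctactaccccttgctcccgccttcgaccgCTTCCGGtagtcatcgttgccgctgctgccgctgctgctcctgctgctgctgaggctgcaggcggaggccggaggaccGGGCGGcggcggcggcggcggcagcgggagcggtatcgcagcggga
Eif4enif1: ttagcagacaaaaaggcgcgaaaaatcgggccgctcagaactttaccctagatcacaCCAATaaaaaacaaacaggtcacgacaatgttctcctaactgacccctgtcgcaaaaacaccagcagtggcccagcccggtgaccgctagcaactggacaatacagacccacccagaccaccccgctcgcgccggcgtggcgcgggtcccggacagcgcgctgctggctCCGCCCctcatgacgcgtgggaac
Eif4b: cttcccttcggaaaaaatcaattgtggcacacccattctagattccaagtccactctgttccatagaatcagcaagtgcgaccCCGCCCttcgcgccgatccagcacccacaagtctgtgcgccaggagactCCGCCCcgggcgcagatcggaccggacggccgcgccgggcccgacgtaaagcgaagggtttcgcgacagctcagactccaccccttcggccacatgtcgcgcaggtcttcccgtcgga
Eif4g1: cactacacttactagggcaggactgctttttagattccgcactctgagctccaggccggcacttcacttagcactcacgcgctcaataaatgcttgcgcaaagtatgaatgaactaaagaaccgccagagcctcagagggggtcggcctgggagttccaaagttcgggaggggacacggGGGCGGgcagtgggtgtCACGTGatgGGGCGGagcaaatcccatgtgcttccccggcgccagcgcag

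The E-box stood in the window of Eif4a1, which rose, 189 bases before the start, and in that of Eif4g1, which fell, 50 bases before the first exon of that start. The GC box stood in all 6 windows, in those of genes that rose and of genes that fell. Promoter windows of 300 bases (250 before to 50 after the start) matched 44 of the 56 genes by symbol, in 57 windows. The E-box was in 21.1% of these windows, against 7.2% of all 32851 windows and 10.5% of the 10779 windows of tested genes. For the GC box the shares were 70.2%, 35.7% and 63.2%, for the CCAAT box 26.3%, 37.4% and 38.6%, and for the ETS-type motif 33.3%, 8.9% and 19.6%. Myc itself measured 1428 and 1640 CPM with DMSO and 2355 and 2318 CPM with JQ1 in line #1.1, and 1422 and 1357 against 2131 and 2194 CPM in line #1.2, from counts that do not separate the transgene from the endogenous gene. By response to JQ1, an E-box was in the windows of 4 of the 10 higher genes with a window (Eif3f, Eif3k, Eif4a1, Eif4h), of 2 of the 13 lower genes (Eif3a, Eif4g1) and of 3 of the 19 that did not pass (Eif1b, Eif4e, Eif5a). In the same order the GC box was in 6, 11 and 15 of these genes, the CCAAT box in 5, 2 and 7, and the ETS-type motif in 1, 5 and 9. These counts by response are per gene, some genes having more than 1 window. Shares of all genes that rose, fell or did not pass were not compared, so the counts have no background. A match is a description of the letters and not of binding, which was not measured here.

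Of the 5 genes named eIF1 or eIF1A, 1 was higher, 2 were lower and 2 did not pass. Eif1, which keeps the scanning ribosome from settling on the wrong codon, was the most changed gene of the set. It lies at chr11:100319885-100322096 (GRCm38). In line #1.1 it measured 265 and 239 CPM with DMSO and 459 and 428 CPM with JQ1, and in line #1.2 it measured 261 and 259 CPM with DMSO and 414 and 413 CPM with JQ1. All 4 JQ1 libraries lay above all 4 DMSO libraries. The averaged log2 change was 0.74 ± 0.036 (SE), a 1.67-fold rise, with an adjusted p of 8.64e-15 by edgeR's quasi-likelihood test. Under all alternatives the change stayed between 0.70 and 0.81.

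Eif1b, a near copy of Eif1 in protein sequence, did not pass: its averaged log2 change was -0.062 ± 0.052 (95% interval -0.17 to 0.046), at a mean of 43.5 and 45.8 CPM in the DMSO groups. Eif1a and Eif1ax both encode eIF1A, which works beside eIF1 in scanning. Eif1a (chr18:46597701-46616456) fell from 155 and 141 to 119 and 124 CPM in line #1.1 and from 144 and 142 to 111 and 113 CPM in line #1.2. The JQ1 libraries of Eif1a lay below the DMSO libraries in both lines, and the averaged log2 change was -0.32 ± 0.038 (adjusted p = 9.87e-08). Eif1ax, on chromosome X, had a change of -0.00056 ± 0.042 (95% interval -0.088 to 0.087) and did not pass.

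Eif1ad (chr19:5366741-5371526), named for its eIF1A-like domain, had the lowest averaged change of the set, within the standard errors of Eif1a, Eif2ak2 and Eif4enif1. It measured 216 and 197 CPM with DMSO and 166 and 167 CPM with JQ1 in line #1.1, and 197 and 205 CPM with DMSO and 165 and 147 CPM with JQ1 in line #1.2. The groups did not overlap in either line, and the averaged log2 change was -0.34 ± 0.040 (adjusted p = 8.24e-08). With the Gm42418 level as a covariate it was -0.22 (adjusted p = 3.01e-04), against -0.36 for Eif4enif1. Eif1ad shares 15.3% of its exon length with Banf1 on the opposite strand, and without a stated strand setting reads of the shared stretch cannot be told apart.

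**Figure D3:**
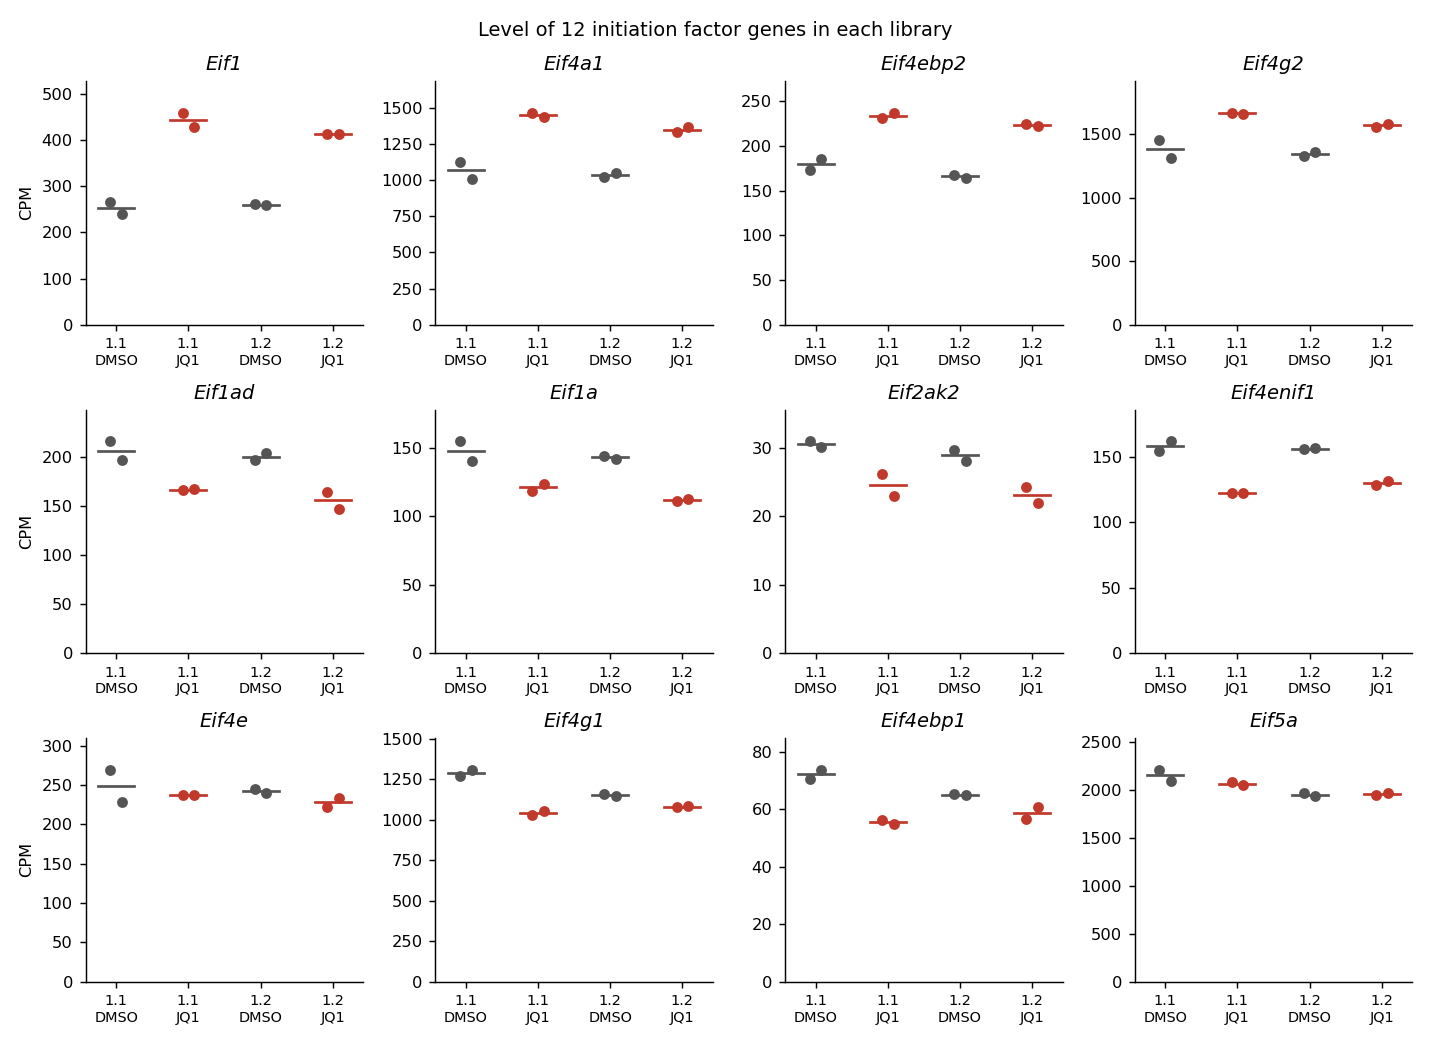
Level in CPM of 12 initiation factor genes in each of the 8 libraries (points; grey DMSO, red JQ1; horizontal lines are group means; each y axis starts at 0). Eif1 rises from 239 to 265 CPM in the DMSO libraries to 413 to 459 CPM in the JQ1 libraries, whereas Eif4e stays between 223 and 269 CPM.

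Among the 4 eIF2 subunit genes, 3 were lower with JQ1 and 1 was higher. eIF2 is the GTPase that brings the initiator tRNA. Eif2s1, its alpha subunit and the target of the stress kinases, measured 378 and 352 CPM with DMSO against 337 and 346 CPM with JQ1 in line #1.1, and 356 and 354 against 313 and 325 CPM in line #1.2. The JQ1 libraries lay below the DMSO libraries within each line, by a narrow margin in line #1.1, with a change of -0.13 ± 0.033 (adjusted p = 0.0020). In line #1.1 alone Eif2s1 did not pass (-0.097 ± 0.047, adjusted p = 0.0864). Eif2s2, the beta subunit, was lower by -0.096 ± 0.037 (adjusted p = 0.0294), with overlapping libraries in line #1.1. The gamma subunit has an X-linked and a Y-linked gene, and these moved apart: Eif2s3x rose by 0.16 ± 0.032 (adjusted p = 1.63e-04) and Eif2s3y fell by 0.26 on the log2 scale (SE 0.044, adjusted p = 1.90e-05). Eif2s1 no longer passed when the Gm42418 level entered the fit as a covariate. Eif2s2 (-0.054 without the first DMSO library of line #1.1) no longer passed with that covariate, with DESeq2, in the additive model and when any of 4 of the 8 libraries was left out.

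Eif2a and Eif2d can deliver tRNA to the ribosome without eIF2. Eif2d fell by 0.27 on the log2 scale (SE 0.059, adjusted p = 3.18e-04), while Eif2a had a change of -0.057 ± 0.034 and did not pass. eIF2B recharges eIF2 with GTP, and of its 5 subunit genes only Eif2b4 passed, with a change of -0.16 ± 0.051 (adjusted p = 0.0085). The other 4 had changes of 0.032 to 0.097 and did not pass, though Eif2b1 was called higher in line #1.2 alone (0.15 ± 0.058, adjusted p = 0.0394). Whether Eif2b1, Eif2b2 and Eif2b5 passed over both lines depended on the libraries kept. Over the alternatives they ran from 0.027 to 0.131, from 0.048 to 0.122 and from -0.001 to 0.106. Eif2b4 lost its call with the covariate, with DESeq2 and without the first JQ1 library of line #1.1.

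The eIF2 kinases each answer to another stress and did not move together: 1 was higher, 1 lower, and 2 did not pass. Eif2ak3, the kinase PERK of the endoplasmic reticulum (chr6:70844515-70905245), measured 62.7 and 62.0 CPM with DMSO and 71.9 and 76.1 CPM with JQ1 in line #1.1, and 60.6 and 58.0 against 67.4 and 64.7 CPM in line #1.2. The JQ1 libraries were higher in both lines, with a change of 0.20 ± 0.044 (adjusted p = 3.40e-04). Eif2ak2, the kinase PKR that senses double-stranded RNA (chr17:78852564-78882573), went the other way. It measured 31.0 and 30.2 against 26.2 and 23.0 CPM in line #1.1, and 29.8 and 28.2 against 24.4 and 22.0 CPM in line #1.2, with DMSO first. The groups did not overlap, and the change was -0.32 ± 0.064 (adjusted p = 1.40e-04).

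Eif2ak4, the amino acid sensor GCN2, measured 101 and 98.4 against 93.7 and 91.3 CPM in line #1.1 and 87.0 and 88.7 against 88.3 and 78.5 CPM in line #1.2. The libraries of line #1.2 overlapped, and the change of -0.091 ± 0.042 (95% interval -0.18 to -0.0035) did not pass at an adjusted p of 0.0661. It passed with library totals as scaling (adjusted p = 0.0083), with the filter at 5 CPM (0.0476), without the first JQ1 library of line #1.2 (0.0179) and without the second DMSO library of line #1.1 (0.0294). Eif2ak1, the heme-regulated kinase HRI, had a change of -0.024 ± 0.036 and did not pass.

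Of the 14 eIF3 subunit genes, 4 were higher, 3 lower and 7 did not pass, with a median change of 0.017. eIF3 is the largest initiation factor and holds the small subunit and the mRNA together. Eif3a, its largest scaffold subunit, had the strongest change: 1033 and 1079 CPM with DMSO against 853 and 890.5 CPM with JQ1 in line #1.1, and 983 and 998 against 865 and 869 CPM in line #1.2. The JQ1 libraries were lower in both lines, with a change of -0.23 ± 0.030 (adjusted p = 3.77e-07). The 4 that rose were Eif3f (0.13), Eif3h (0.099), Eif3i (0.12) and Eif3k (0.14), all by less than Eif3a fell. The other 2 that fell were Eif3d, the subunit that can bind the cap (-0.089), and Eif3m (-0.12).

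Eif3a and Eif3f kept their calls under every alternative, and Eif3d, Eif3h, Eif3i, Eif3k and Eif3m each lost theirs under at least 1. Eif3m changed sign to 0.019 (adjusted p = 0.783) with the covariate, and was -0.054 without the first and -0.18 without the second DMSO library of line #1.1. Eif3b, Eif3c, Eif3e, Eif3g, Eif3j1, Eif3j2 and Eif3l had changes of -0.052 to 0.058 and did not pass. Eif3d shares 43.3% of its exon length with the antisense gene Gm17638, to which few reads were assigned. Eif3j1 shares 19% with Spg11 and, outside eIF3, Eif5b shares 16.8% with Rev1, both on the opposite strand. Without a stated strand setting, how reads of these shared stretches were counted cannot be told, and few reads of Gm17638 do not settle it.

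Of the 5 genes of eIF4A and its helpers, 3 were higher, 1 was lower and 1 did not pass. eIF4A unwinds structure in the 5′ end of mRNAs, and eIF4B and eIF4H stimulate it. Eif4a1 (chr11:69666936-69672423), the main helicase gene, measured 1127 and 1010 CPM with DMSO and 1465 and 1433 CPM with JQ1 in line #1.1. In line #1.2 it measured 1022 and 1052 CPM with DMSO and 1332 and 1365 CPM with JQ1. All 4 JQ1 libraries lay above all 4 DMSO libraries, with a change of 0.41 ± 0.034, a 1.33-fold rise (adjusted p = 1.59e-10). The pseudogene Eif4a-ps4, left out by the rule, carried 30.3% to 34.4% as many reads as Eif4a1 and had a change of 0.34 ± 0.038, so reads may be split between the copies. With its reads added to those of Eif4a1 the change was 0.39.

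Eif4a2, the closest relative of Eif4a1, rose by 0.21 ± 0.037 (adjusted p = 4.05e-05), and Eif4h rose by 0.097 ± 0.032 (adjusted p = 0.0106). Eif4b fell in both lines: from 959 and 996 to 821 and 845 CPM in line #1.1 and from 1090 and 1042 to 938 and 911 CPM in line #1.2. Its groups did not overlap, and the change was -0.22 ± 0.031 (adjusted p = 1.30e-06). Eif4a3, which works in the exon junction complex and not in initiation, had a change of -0.037 ± 0.035 (95% interval -0.11 to 0.034) and did not pass. Eif4h lost its call with library totals as scaling and without the second DMSO library of line #1.2.

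No cap-binding gene passed. Eif4e (chr3:138526179-138559696), the cap-binding subunit of eIF4F, measured 269 and 229 CPM with DMSO and 238 and 238 CPM with JQ1 in line #1.1, and 245 and 240 against 223 and 233 CPM in line #1.2. The JQ1 libraries of line #1.1 lay between its DMSO libraries, while those of line #1.2 lay below. The change was -0.078 ± 0.041 (95% interval -0.16 to 0.0061, adjusted p = 0.100), so a fall of up to 0.16 on the log2 scale lies within the interval. Eif4e passed with library totals as scaling, without the second DMSO library of line #1.1 and without the 2 libraries with the most Gm42418 of their lines. Eif4e2, which binds the cap without supporting eIF4F, had a change of 0.047 ± 0.039, and Eif4e3 had one of -0.13 ± 0.097. Over the alternatives Eif4e2 ran from -0.004 to 0.107, and whether it passed depended on the libraries kept.

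The 3 eIF4G scaffolds all moved, Eif4g1 down and its relatives up. Eif4g1 (chr16:20668313-20692884), the scaffold of eIF4F, measured 1274 and 1310 CPM with DMSO and 1033 and 1056 CPM with JQ1 in line #1.1, and 1158 and 1147 against 1080 and 1083 CPM in line #1.2. The groups did not overlap, and the change was -0.20 ± 0.029 (adjusted p = 2.37e-06). In line #1.2 alone Eif4g1 did not pass (-0.091 ± 0.041, adjusted p = 0.0709). Eif4g2 (chr7:111067750-111083030), also called DAP5, lacks the part that binds eIF4E. It measured 1455 and 1311 CPM with DMSO and 1669 and 1662 CPM with JQ1 in line #1.1, and 1332 and 1360 against 1560 and 1583 CPM in line #1.2. Every JQ1 library lay above every DMSO library, with a change of 0.25 ± 0.032 (adjusted p = 4.85e-07). Eif4g3, the other full-length scaffold, rose by 0.16 ± 0.038 (adjusted p = 6.55e-04), with 1 DMSO library of line #1.1 at the level of the JQ1 libraries, and lost its call with the covariate. It passed in line #1.2 (0.22 ± 0.054, adjusted p = 0.00147) but not in line #1.1 (0.11 ± 0.054, adjusted p = 0.106).

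The 4E-binding proteins moved in opposite directions. Eif4ebp2 (chr10:61428491-61452661) measured 173 and 186 CPM with DMSO and 231 and 237 CPM with JQ1 in line #1.1, and 168 and 164 against 225 and 223 CPM in line #1.2. All JQ1 libraries were higher, with a change of 0.41 ± 0.035, a 1.33-fold rise (adjusted p = 3.04e-10). Eif4ebp1 (chr8:27260329-27276674), the best known of these repressors, measured 70.7 and 73.8 against 56.4 and 54.9 CPM in line #1.1 and 65.3 and 65.0 against 56.7 and 61.0 CPM in line #1.2. Its JQ1 libraries were lower in both lines, with a change of -0.26 ± 0.045 (adjusted p = 2.00e-05). In line #1.2 alone Eif4ebp1 did not pass (-0.15 ± 0.064, adjusted p = 0.0589). Eif4enif1 (chr11:3202392-3244588) encodes 4E-T, which carries eIF4E into the nucleus and into P-bodies. It measured 154 and 162 against 122 and 122 CPM in line #1.1 and 156 and 157 against 128 and 132 CPM in line #1.2, with no overlap and a change of -0.32 ± 0.035 (adjusted p = 3.62e-08).

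None of the factors of subunit joining and of the later steps passed. Eif5a (chr11:69916714-69921958) measured 2206 and 2088 against 2074 and 2043 CPM in line #1.1 and 1962 and 1935 against 1942 and 1968 CPM in line #1.2, with DMSO first. Its groups overlapped in line #1.2, and the change was -0.028 ± 0.029 (95% interval -0.088 to 0.032). Eif6 (chr2:155819832-155826925), which keeps the large subunit apart from the small one, measured 123 and 116 against 122 and 118 CPM in line #1.1 and 119 and 118 against 121 and 125 CPM in line #1.2. Its change was 0.031 ± 0.037 (95% interval -0.046 to 0.11). Eif5, which triggers GTP hydrolysis by eIF2, and Eif5b, which joins the subunits, had changes of 0.047 and 0.021. Eif5a passed with library totals as scaling (-0.072, adjusted p = 0.0310), and Eif5 passed without the first DMSO library of line #1.1 (0.087, adjusted p = 0.0096).

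Ratios of CPM within a library do not depend on how libraries are scaled. They are given as a description for 10 pairs of related genes, chosen after their values were seen. An exact test with drug labels permuted within lines cannot reach 0.05, since its smallest possible p is 0.0556, and nothing is concluded from it. The log2 ratio of Eif1 to Eif1b went from 2.52 ± 0.13 (SD, n = 4) with DMSO to 3.33 ± 0.052 with JQ1 (n = 4). That of Eif4ebp2 to Eif4ebp1 went from 1.33 ± 0.030 to 2.00 ± 0.10, and that of Eif4g1 to Eif4g2 from -0.16 ± 0.11 to -0.61 ± 0.079. In each of these 3 pairs the JQ1 libraries lay apart from the DMSO libraries.

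For Eif4a1 over Eif4a3 the ratio was higher with JQ1 by 0.45, for Eif2s3x over Eif2s3y by 0.41 and for Eif4a1 over Eif4a2 by 0.20. The difference was -0.36 for Eif4g1 over Eif4g3, -0.32 for Eif1a over Eif1ax and -0.12 for Eif4e over Eif4e2. Eif3j1 over Eif3j2 stood at 1.37 ± 0.083 with DMSO and 1.35 ± 0.044 with JQ1, with overlapping libraries. A ratio shows unequal change and not which gene of a pair moved.

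**Figure D4:**
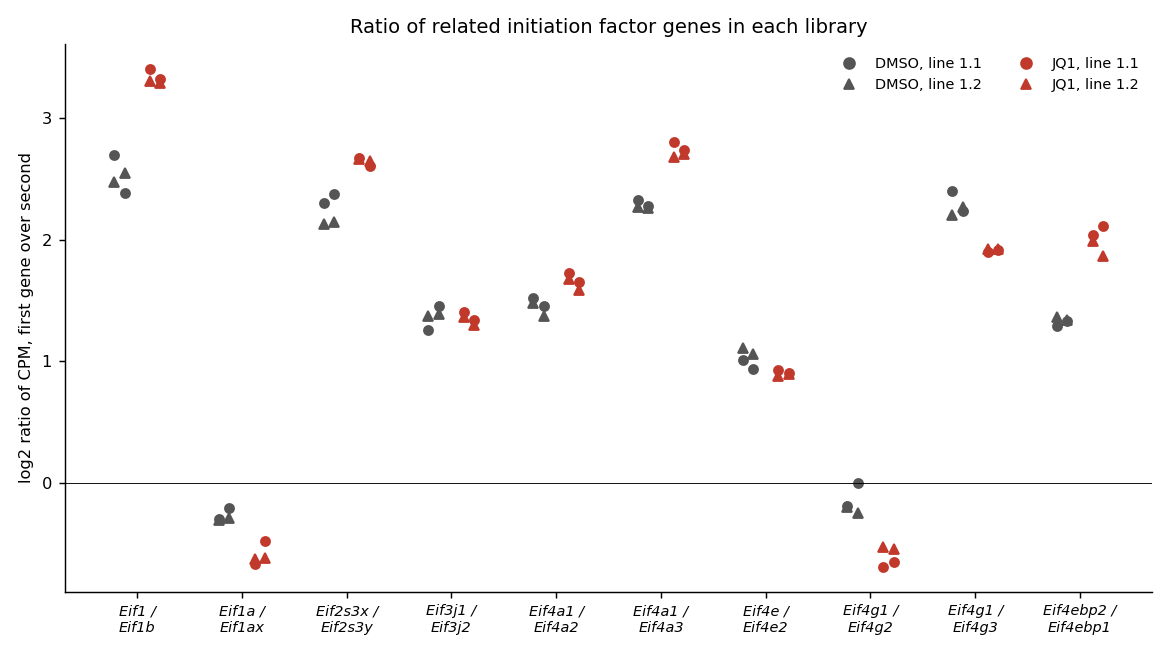
Log2 ratio of the CPM of related initiation factor genes in each library (grey DMSO, red JQ1; circles line #1.1, triangles line #1.2). The JQ1 and DMSO libraries separate widely for Eif1 over Eif1b (means 3.33 and 2.52) and for Eif4ebp2 over Eif4ebp1 (2.00 and 1.33), and overlap for Eif3j1 over Eif3j2.

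The lines were compared by their calls and by the difference of their responses. In line #1.1, 10 initiation factor genes were higher and 12 lower with JQ1, against 51.0% of all genes tested called in either direction. In line #1.2, 12 were higher and 11 lower, against 49.4% of all genes. The calls had the same direction in both lines for 16 genes (8 higher, 8 lower), were found in line #1.1 alone for 6 and in line #1.2 alone for 7, and were opposite for 0. These 16 are 30.8% of those tested, against 40.2% of all genes, and 0.0403% of all genes were called in opposite directions, 10.8% in line #1.1 alone and 9.23% in line #1.2 alone. Over the 52 genes the changes in the lines, which share no library, had a Pearson correlation of 0.88 and a Spearman correlation of 0.82, against 0.85 and 0.83 over all genes, given as a description. The rise of Eif1 was 0.81 ± 0.051 in line #1.1 and 0.67 ± 0.051 in line #1.2, and that of Eif4a1 was 0.44 ± 0.048 and 0.38 ± 0.048.

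The number of higher genes in line #1.2 rose when either DMSO library of line #1.1 was left out. It fell when any other library was left out, be it one of line #1.2 or a JQ1 library of line #1.1. The share of all genes called in those fits was not compared. In line #1.2 the Gm42418 reads moved with JQ1, so a covariate of their level overlaps with the drug there. With that covariate 7 genes were higher and 3 lower in line #1.2, and the part of these reads was not tested.

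**Figure D5:**
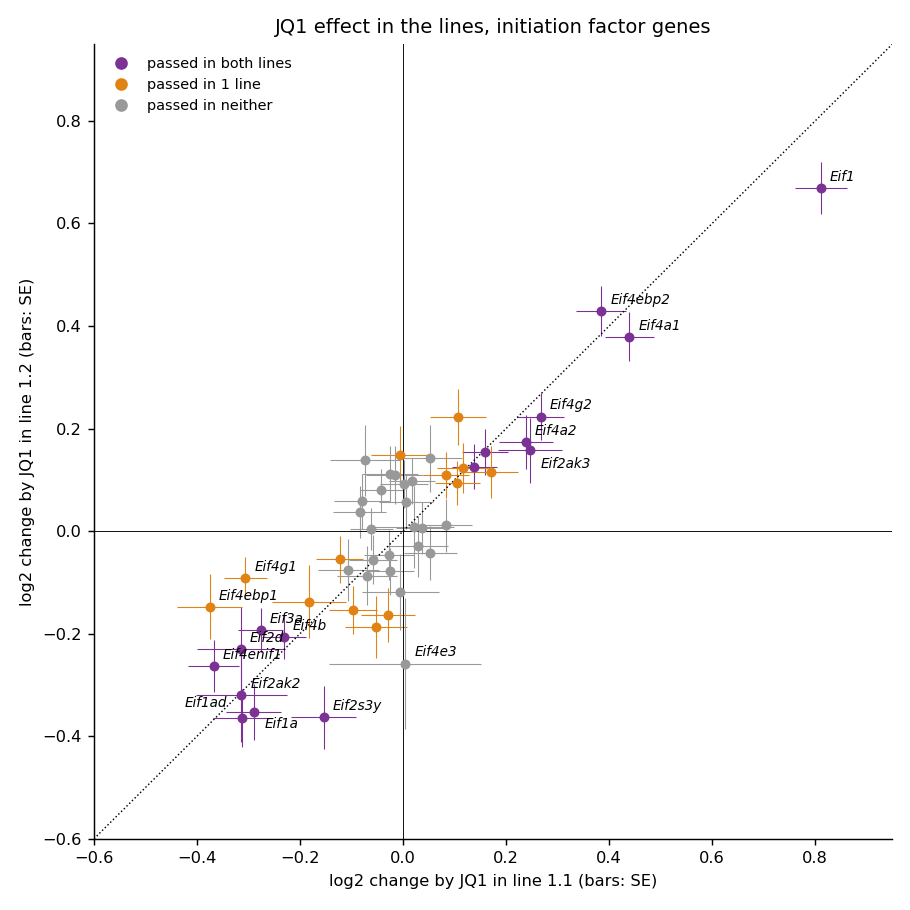
Log2 change by JQ1 of the 52 tested initiation factor genes in line #1.1 (x axis) against line #1.2 (y axis), with standard errors as bars and equal change as a dotted line; colours show in how many lines a gene passed. Eif1 lies at 0.81 and 0.67, and 16 genes passed with the same sign in both.

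No initiation factor gene passed the test of the difference between the lines' responses by edgeR, against 0.113% of all genes tested (14 genes), and 4 had an unadjusted p under 0.05. DESeq2 and limma-voom also called 0, with 1 and 5 at an unadjusted p under 0.05. The share of all genes at that unadjusted level was not compared. The smallest p was that of Eif4g1, with changes of -0.31 ± 0.041 in line #1.1 and -0.091 ± 0.041 in line #1.2 and a difference of 0.21 ± 0.058 (adjusted p = 0.219). Eif4ebp1 was next, with -0.38 ± 0.063 and -0.15 ± 0.064 and a difference of 0.23 ± 0.090 (adjusted p = 0.537). Eif4g1 and Eif4ebp1 are named here after their values were seen. Genes passed in both directions in the fit without the first DMSO library of line #1.1, which leaves a single library in that group. The share of all genes passing in that fit was not compared.

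With DMSO alone, 4 initiation factor genes differed between the lines, 7.69% of those tested against 6.77% of all genes tested. Eif4e3, which binds the cap in an unusual way, was higher in line #1.2: 12.7 and 11.9 CPM against 8.28 and 7.27 CPM in line #1.1, from 76 to 144 reads per library. The difference was 0.65 ± 0.13 on the log2 scale (adjusted p = 0.0028), and it did not pass with DESeq2 (adjusted p = 0.0802). Eif2b1, Eif4g1 and Eif5a were lower in line #1.2. Eif2b1, an eIF2B subunit, measured 103 and 96.9 CPM in line #1.1 and 90.3 and 85.4 CPM in line #1.2, a difference of -0.19 ± 0.058 (adjusted p = 0.0493). The difference was -0.16 ± 0.041 for Eif4g1 (adjusted p = 0.0152) and -0.14 ± 0.041 for Eif5a (adjusted p = 0.0400), from the DMSO values given above. The 3 lower calls were lost when only the 4 DMSO libraries were fitted. The count of lower genes fell without either DMSO library of line #1.2 and without any of the JQ1 libraries of both lines. It rose without either DMSO library of line #1.1. The share of all genes called in those fits was not compared.

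Genes of 4 lists around initiation are given by their counts, to be read against the 62.0% of all genes tested that passed in either direction. Of 24 initiation cofactors listed, 23 were tested, 13 of which were higher and 6 lower, with a median change of 0.16 against 0.0036 over all genes. Mknk2 and Mknk1, the kinases that phosphorylate eIF4E on the eIF4G scaffold, rose by 1.12 ± 0.033 (adjusted p = 5.65e-19) and 0.72 ± 0.050 (adjusted p = 7.18e-12). Ltv1, an assembly factor of the small ribosomal subunit, fell by 0.67 on the log2 scale (SE 0.044, adjusted p = 2.58e-12). Mknk2 was 2.17-fold higher with JQ1, against 1.67-fold for Eif1, the most changed of the factor genes.

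Of 14 tested genes of elongation and termination, 5 were higher and 3 lower, with a median of 0.023. Eef2, which moves the ribosome along the mRNA, rose by 0.25 ± 0.029, and its inhibitory kinase Eef2k fell by 0.37 on the log2 scale (SE 0.044). Eefsec, the elongation factor for selenocysteine, rose by 0.36 ± 0.049. Of 15 tested genes of the mTORC1 pathway, which controls the 4E-binding proteins, 6 were higher and 5 lower, with a median of -0.014. Mtor, the kinase itself, fell by 0.27 on the log2 scale (SE 0.037), and the mTORC1 inhibitors Sesn2 and Ddit4 rose by 1.19 ± 0.092 and 0.61 ± 0.057. Other members, named after their values were seen, went against these: the inhibitors Deptor (-0.51 ± 0.078) and Akt1s1 (-0.20 ± 0.064) fell, and the mTORC1 subunits Rptor (0.22 ± 0.043) and Mlst8 (0.22 ± 0.056) rose. Tbc1d7, a subunit of the inhibitory TSC complex with a mean of only 4.0 CPM, fell by 0.99 on the log2 scale (SE 0.16). Tsc1 (0.17) and Tsc2 (0.21) rose. Of 6 genes of mitochondrial initiation and elongation 0 were higher and 2 lower by edgeR, with Mtif2 at -0.19 ± 0.060, Tufm at -0.18 ± 0.038 and Tsfm, which did not pass, at -0.10 ± 0.050. These lists are described by their counts and medians, and no difference between a list and other genes was tested.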

How the data were processed

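Per the labels' protocols, total RNA was made into libraries with an Illumina TruSeq RNA kit. The deposited table holds raw read counts per Ensembl gene, made by the authors, per the submitters' processing notes, with cutadapt 1.7, TopHat, Bowtie2 and HTSeq on GRCm38 (mm10); the sources used here give neither the annotation release nor the strand setting. Symbols, positions and exon lengths were taken from GENCODE M21 on GRCm38. Summary lines of the counts were left out: reads in no feature came to 12.33% to 14.4% and ambiguous reads to 1.54% to 1.67% of a library.

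Genes with enough reads (edgeR's filterByExpr, minimum count 10, minimum total 15; 12413 genes) were scaled by TMM and fitted in edgeR 4.0.16 (R 4.3.3) by the quasi-likelihood test, as means of 4 groups over all 8 libraries, with 4 residual degrees of freedom. Tests were two-sided, with Benjamini-Hochberg adjustment over all genes tested and a threshold of 0.05. SE is the absolute log2 change divided by the square root of F. Alternatives used DESeq2 1.42.0, limma 3.58.1 (voom), other scalings, filters and libraries.

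The genes, lists and roles were chosen with earlier results of these data known. The motifs, the 6 upstream windows shown, the 10 pairs of related genes and the comparison at 20 CPM were chosen after the data were seen. Values per library are given for the 4 largest rises and falls, the genes that differ between lines in DMSO (at most 3 each way) and 10 genes always shown, all at a mean of at least 5 CPM, and beyond this rule for Eif3a and Eif4b, chosen after their values were seen. Per list, the 3 genes with the smallest p were named. A B cell marker of the list is not reported here and stays out of the marker sums.

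Same-numbered libraries of different groups did not deviate together (correlations of -0.029 to 0.082), so the replicate numbers were not used as pairs.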

Additional observations from a re-analysis of the deposited data

How the results depend on the processing

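Of the 28 initiation factor genes called with JQ1 over both lines, the replicate block kept 28, limma-voom 28, DESeq2's size factors 28, library totals 25, DESeq2 24 and the Gm42418 covariate 21. Of all 12413 genes tested, 7692 were called in the main fit, 7578 with library totals, 6245 with DESeq2 and 6188 with the covariate. With the block, 13 were higher and 15 lower, and it changed no call in that comparison; in line #1.1 it gave 11 higher. Leaving out 1 library gave 11 to 17 higher and 11 to 18 lower over both lines.

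Higher genes in line #1.2 numbered 7 with library totals, 7 with the covariate, 7 at a threshold of 0.01, 19 with only the 4 libraries compared and 6 to 20 without 1 library; lower genes there numbered 3 with the covariate. For the difference between the responses, 1 gene was higher without a filter on low counts, and 0 to 2 were higher and 0 to 4 lower without 1 library. For the lines in DMSO, higher genes numbered 0 with DESeq2 and 2 with library totals, limma-voom, no filter, the 5 CPM filter or the covariate. Lower genes there numbered 1 with library totals, 5 with the covariate, 0 with only the 4 libraries compared and 0 at a threshold of 0.01. Both counts also moved in some fits without 1 library, and without the 2 libraries with the most Gm42418 of their lines. The cause of these moves was not tested, and the share of all genes called in these fits was not compared.

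Among the called genes, the sign of the averaged change turned only for Eif3m, from -0.12 to 0.0188 with the covariate. The other genes whose sign turned had not been called. Eif1ax gave 0.0011 with DESeq2's size factors, 0.0017 with DESeq2, 0.0006 with voom, 0.0041 without a filter, 0.0003 with the replicate block, 0.1046 with the covariate and -0.0540 to 0.0564 without 1 library. With library totals Eif2b3 gave -0.0110, Eif2b5 -0.0002, Eif3b -0.0245, Eif3j1 -0.0383, Eif3j2 -0.0288, Eif5b -0.0220 and Eif6 -0.0121. With the covariate Eif4a3 gave 0.0122, Eif4e 0.0128, Eif5a 0.0019 and Eif5b -0.0290. Without the 2 libraries Eif2b5 gave -0.0014, Eif3j1 -0.0479, Eif3j2 -0.0983, Eif4e2 -0.0038, Eif5 -0.0157, Eif5b -0.0177 and Eif6 -0.0014. Without 1 library Eif2b3 ran from -0.0081 to 0.0691, Eif3g from -0.0587 to 0.0355, Eif3j1 from -0.0259 to 0.0341, Eif3j2 from -0.0587 to 0.1004 and Eif5b from -0.0176 to 0.0601. Leaving out those 2 libraries, and adding the reads of Eif4a-ps4 to Eif4a1 (0.3933), were chosen after seeing the data. Depth limits Eif4e3 most among the tested genes, at 76 to 144 reads per library.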
